A study of Danio rerio with 2 samples.

Results

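The Notch pathway and hairy-related transcription factors, several of which it controls, were followed in whole zebrafish embryos. The embryos were mock-injected or injected with Dcp2-DN, meant to inhibit the mRNA decapping enzyme Dcp2. Members were chosen by a rule on gene names in the deposited table, set with earlier results of these data known. Names were matched for Delta and Jagged ligands, Notch receptors, Mindbomb, Fringe, the cleaving proteases, Rbpj and Mastermind, Numb, the her, hes and hey families and the proneural neurog and ascl genes. This gave 68 rows of 32571, of which 39 had been tested by the authors.

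RNA came from AB strain embryos at 6 hpf (hours post fertilization), when gastrulation begins, in pools of 40 to 50 embryos. The control group, called controls below, was mock-injected. The other group was injected with Dcp2-DN, named in the field for a dominant-negative form of the catalytic subunit of the decapping complex. Both groups came from natural matings of the same strain and had no other treatment in the labels. Each group had 1 sample entry, the design text names 3 replicates, and the deposited table gave 1 FPKM value per gene and group, so no SD is given below. FPKM is a level in fragments per kilobase, scaled to the fragments of a library in a way that was not given. Depth was unknown.

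In Notch signalling a Delta or Jagged ligand on one cell binds a Notch receptor on its neighbour, and Mindbomb, a ubiquitin ligase, drives the uptake of the ligand that pulls on the receptor. ADAM proteases and then gamma-secretase cut the receptor. Its freed intracellular domain joins Rbpj and Mastermind on DNA to switch on some, not all, of the her, hes and hey genes. The products of these families are basic helix-loop-helix repressors. Among them are repressors that hold back proneural genes in the neural plate and others that run the segmentation clock in the mesoderm that forms somites. Transcripts of clock genes are known to be short-lived, and in zebrafish the decapping cofactor Pnrc2 is needed for the decay of several of them.

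A gene is described as called, and as having risen or fallen, where the authors' deposited table marked it significant, that is, tested with q under 0.05. These tests came from Cuffdiff. Whether all 3 replicates entered them was not given, so the p-values may reflect less than the full spread of the replicates, which may itself be technical. The lowest q in the table, 0.000593, was shared by 1249 rows. As a check of the labels, one of the gene models named dcp2 was at 0.0398 FPKM in controls and 212 FPKM under Dcp2-DN, and the other was at 13.9 and 16.7 FPKM. Neither dcp2 model was called per the authors' deposited table. Defining markers of each layer of the gastrula were present in both groups, and several of them changed. The marker counts that follow stand beside 20.6% called higher and 4.35% called lower among all 14810 tested genes. Of 5 margin markers, flh (138 to 228 FPKM) and gsc (65.0 to 79.0 FPKM) rose and ntlb fell per the authors' deposited table, with a summed level of 782 FPKM in controls and 869 FPKM under Dcp2-DN. Of 5 tested enveloping layer rows, 4 keratin genes fell, among them krt4 (917 to 688 FPKM), and 0 rose per the authors' deposited table, with a summed level of 3884 and 3105 FPKM. All 3 germ plasm markers rose per the authors' deposited table, with a summed level of 111 and 313 FPKM. Of the yolk syncytial layer markers, mxtx2 rose (35.8 to 93.6 FPKM) and apoa1a fell (46.7 to 35.3 FPKM) per the authors' deposited table, with a summed level of 82.5 and 129 FPKM. Of 3 neural ectoderm markers, 2 fell, and of 3 endoderm markers, 1 fell per the authors' deposited table, with sums of 316 and 301 FPKM and of 257 and 253 FPKM. The part of these tissues in the members' changes was not tested.

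The called Notch pathway genes had no single direction. Of the 39 tested members, the authors' deposited table held 7 calls higher and 6 calls lower. Rises made up 17.9% of the tested members, beside 20.6% called higher among all 14810 tested genes, so their share was near that of all genes. Falls made up 15.4%, beside 4.35% called lower among all tested genes. The called rises were the nuclear genes rbpja, rbpjb and maml3, the ligand gene jag1b and the repressor genes her5, her11 and hey1. The called falls were the receptor genes notch3 and notch1a (1 of its 3 models), both mindbomb models, the ligand gene dla and the repressor gene her3. The mindbomb models may be copies that share reads, so they may not be separate falls.

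The called differences were mostly modest, from 1.23-fold to 2.59-fold, and 2 of the 13 reached 2-fold, her5 upward and dla downward. The 41 member rows whose mean reached 1 FPKM had a median log2 ratio (Dcp2-DN over mock) of 0.0043, beside 0.12 over all 15457 such rows. This median turned to -0.11 when ratios were centred on all genes and to 0.22 when they were centred on ribosomal protein genes. That second centring adds 0.22 to every log2 ratio and moves the median of all genes to 0.34. Each of the 13 called members kept its direction under both centrings. Centred on ribosomal protein genes, however, notch1a, mib and MIB1 (1 of 2) came close to 0, at -0.084, -0.092 and -0.13. Stricter and looser readings of the authors' deposited table gave 5 members higher and 3 lower at q under 0.01 (13.5% and 1.55% of all tested genes), and 9 and 7 at an unadjusted p under 0.05 (27.5% and 8.22%). Called differences of at least 1.5-fold numbered 3 higher and 2 lower per the authors' deposited table (11.9% and 0.885% of all tested genes). Among members whose mean reached 10 FPKM, 5 of 26 had a call higher and 5 a call lower per the authors' deposited table, beside 21.9% and 5.57% of all tested genes at that level.

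**Figure D1:**
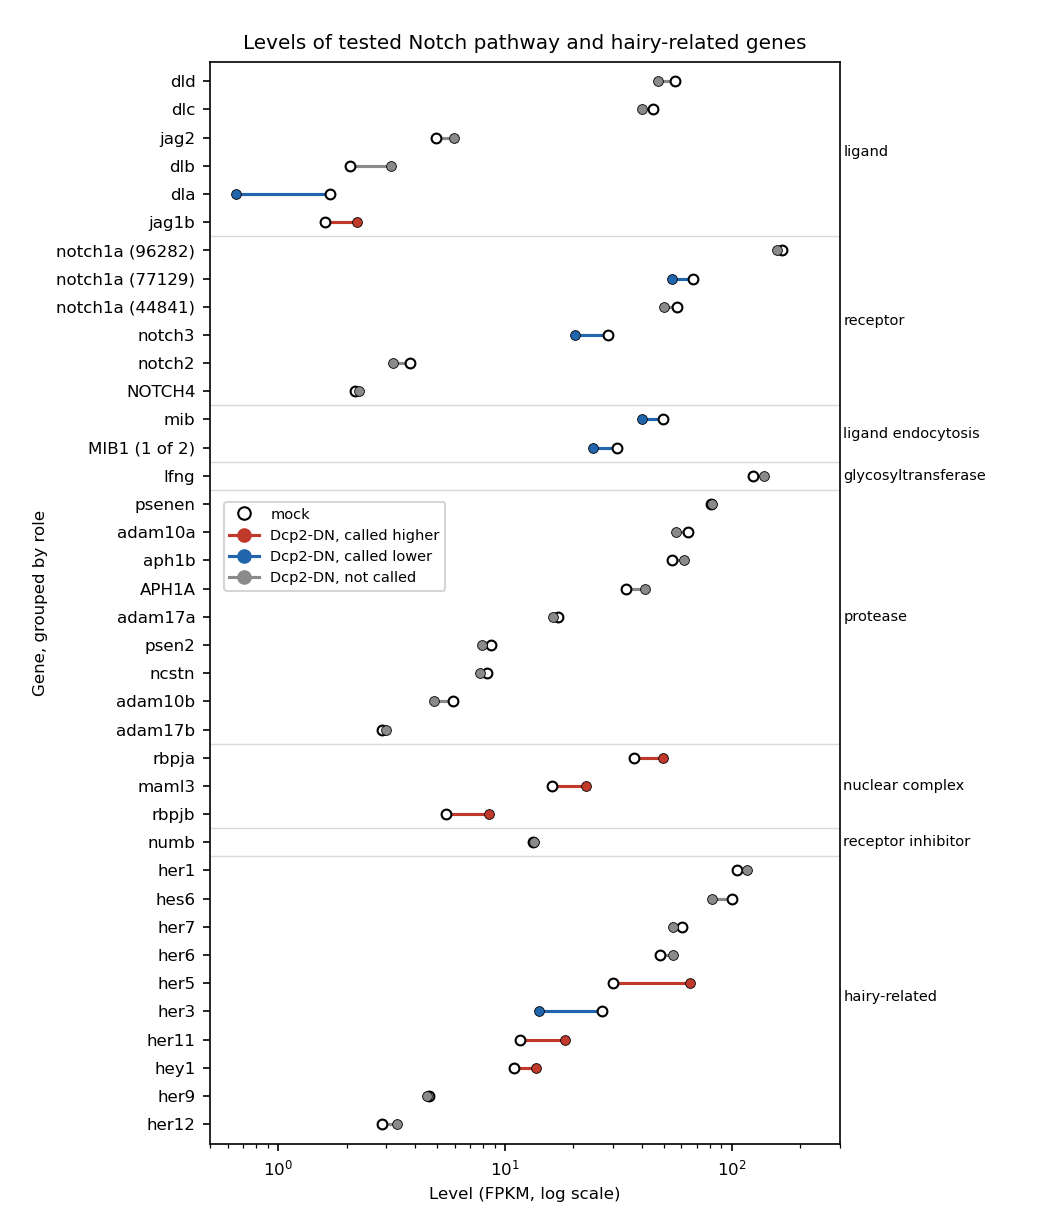
Level of 38 of the 39 tested members in FPKM on a log axis, with mock embryos as open circles and Dcp2-DN embryos as filled circles, grouped by role. Red and blue mark members called higher or lower per the authors' deposited table and grey marks members without a call. Numbers in brackets are the last digits of the gene ID where a name was carried by several models. The widest gaps are those of dla, her5 and her3.

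**Figure D2:**
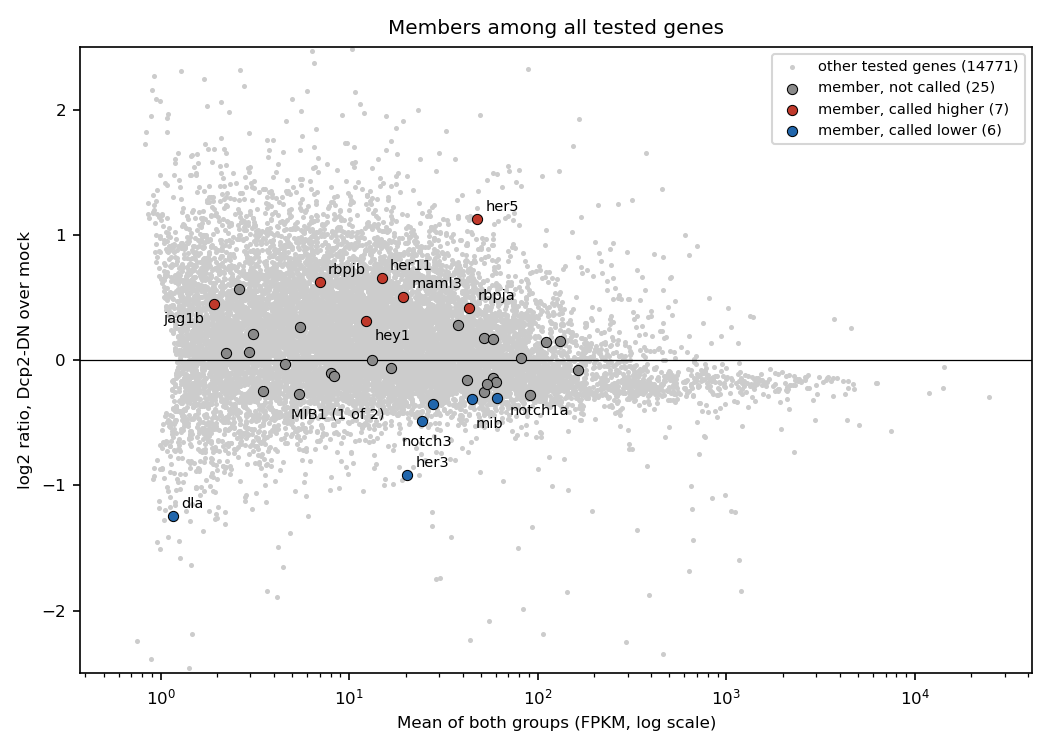
Mean level of both groups in FPKM on a log axis against the log2 ratio of Dcp2-DN over mock with a pseudocount of 0.1 FPKM, with 38 of the 39 tested members over 14771 other tested genes in light grey (43 of these lie beyond the vertical axis). The members lie within the cloud of other genes, with her5 the highest of the members shown and dla and her3 the lowest.

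Among the ligands, dla fell and jag1b rose, both at low levels, while the abundant Delta genes had no call. Of the 6 tested ligand rows, 1 was thus called higher and 1 lower per the authors' deposited table. Each was 16.7%, beside 20.6% called higher and 4.35% called lower among all tested genes. The gene dla (ENSDARG00000010791, chromosome 1, 54580210 to 54592934, with all coordinates on Zv9 as deposited), a Delta ligand of neural progenitors, was at 1.69 FPKM in controls and 0.653 FPKM under Dcp2-DN. Its level was 2.59-fold lower in Dcp2-DN embryos, with the lowest q of the authors' deposited table. Because the level was low, its log2 ratio depended on the pseudocount, at -1.25 with 0.1 FPKM and -0.70 with 1 FPKM. The gene jag1b (ENSDARG00000013168, chromosome 13, 35560773 to 35611687), a Jagged ligand, was at 1.60 FPKM in controls and 2.22 FPKM under Dcp2-DN, a 1.39-fold rise with q = 0.0231 per the authors' deposited table. The locus of jag1b was shared with 1 other gene.

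The main Delta transcripts of the gastrula were those of dld and dlc, ligands of the margin and the forming mesoderm. Their levels were lower in Dcp2-DN embryos but did not pass. The level of dld was 56.3 FPKM in controls and 47.2 FPKM under Dcp2-DN, with p = 0.0138 and q = 0.0541 per the authors' deposited table. That of dlc was 44.7 and 40.0 FPKM (q = 0.485 per the authors' deposited table). In mock embryos the level of dld was thus 33.3 times that of dla, and in Dcp2-DN embryos 72.3 times. Of the remaining tested ligand genes, dlb was at 2.07 and 3.13 FPKM (q = 0.162) and jag2 at 4.96 and 5.97 FPKM (q = 0.133), without a call per the authors' deposited table. The rows of dll4, jag1a and the second jag2 model were not tested and reached at most 1.20 FPKM. Summed over the 9 ligand rows, the level was 113 FPKM in controls and 101 FPKM under Dcp2-DN.

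Receptor transcripts were lower or without a call. The gene notch3 (ENSDARG00000052139, chromosome 3, 54165564 to 54197194) was at 28.5 FPKM in controls and 20.3 FPKM under Dcp2-DN. It fell 1.4-fold, with the lowest q of the authors' deposited table. This was the largest fall among the receptor rows.

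The receptor gene notch1a was split into 3 models along one stretch of chromosome 21, separated by gaps of 21.1 and 4.3 kb, and only the first of them was called. That model (ENSDARG00000077129, 5028933 to 5036108) was at 67.3 FPKM in controls and 54.5 FPKM under Dcp2-DN, a 1.23-fold fall with q = 0.0359 per the authors' deposited table. The second (ENSDARG00000044841) was at 57.3 and 50.2 FPKM (q = 0.389), and the third (ENSDARG00000096282), a locus of 248 bp, at 167 and 158 FPKM (q = 0.795 per the authors' deposited table). All 3 models had the lower value in Dcp2-DN embryos. They carry 1 gene name and may be parts of 1 transcript, so they are not separate pieces of evidence.

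The gene notch2 was at 3.80 FPKM in controls and 3.20 FPKM under Dcp2-DN and was not called (q = 0.149 per the authors' deposited table). The row that the table names NOTCH4 (2.19 and 2.28 FPKM, q = 0.947 per the authors' deposited table) carries a gene ID that the name table gives as eys, an eye gene outside the Notch receptor family. Without this row, 2 of 5 tested receptor rows were called lower per the authors' deposited table, beside 4.35% of all tested genes, with the 3 models of notch1a counted separately. When ratios were centred on ribosomal protein genes, the uncalled notch1a models changed sign, while notch3 and the called notch1a model stayed lower at -0.27 and -0.084 on the log2 scale. The rows of notch1b and notchl were not tested and stayed at or under 0.463 FPKM.

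Both models named for Mindbomb, the ubiquitin ligase of ligand uptake, fell, beside 4.35% called lower among all tested genes. The model named mib (ENSDARG00000087895) was at 49.7 FPKM in controls and 40.0 FPKM under Dcp2-DN, 1.24-fold lower with q = 0.0209 per the authors' deposited table. The model named MIB1 (1 of 2) (ENSDARG00000055581), whose locus was shared with 2 microRNA genes, was at 31.2 and 24.5 FPKM, 1.28-fold lower with q = 0.0102 per the authors' deposited table. The models lie on different unplaced scaffolds of Zv9. Whether they are copies that share reads cannot be told from the table, so their values are uncertain and they may not be separate pieces of evidence. When ratios were centred on ribosomal protein genes, mib was at -0.092 and MIB1 (1 of 2) at -0.13 on the log2 scale.

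Lunatic fringe, lfng, the glycosyltransferase that alters how Notch responds to its ligands, was among the most abundant members. It was at 124 FPKM in controls and 139 FPKM under Dcp2-DN, without a call (q = 0.555 per the authors' deposited table). Its relative mfng was not tested, at 0.0976 and 0.102 FPKM.

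The proteases that cut the receptor held no call. All 10 of their rows were tested, 0 were called per the authors' deposited table (beside 20.6% called higher and 4.35% called lower among all tested genes), and no pair of values differed by more than 1.22-fold. By Cuffdiff, 1 of the 10 had an unadjusted p under 0.05 per the authors' deposited table, APH1A, which encodes a gamma-secretase subunit, at 34.2 FPKM in controls and 41.6 FPKM under Dcp2-DN (p = 0.0146, q = 0.0564).

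The gene psen2, encoding a catalytic subunit of gamma-secretase, was at 8.67 FPKM in controls and 7.95 FPKM under Dcp2-DN, without a call. Genes of further gamma-secretase subunits were also without a call, with aph1b at 54.5 and 61.4 FPKM, ncstn at 8.29 and 7.73 FPKM and psenen at 80.8 and 81.8 FPKM. Of the ADAM proteases, which make the first cut, adam10a was the most abundant at 64.1 FPKM in controls and 56.7 FPKM under Dcp2-DN. Next came adam17a at 17.1 and 16.3 FPKM, adam10b at 5.91 and 4.88 FPKM and adam17b at 2.86 and 3.0 FPKM. The locus of adam10a was shared with 2 other genes. Summed over the protease rows, the level was 291 FPKM in controls and 295 FPKM under Dcp2-DN.

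Each of the 3 tested rows of the nuclear complex rose, beside 20.6% called higher among all tested genes. The gene rbpja (ENSDARG00000003398, chromosome 1, 13339434 to 13348758), encoding the DNA-binding protein of the pathway, was at 37.2 FPKM in controls and 49.7 FPKM under Dcp2-DN. This was a 1.33-fold rise with the lowest q of the authors' deposited table. Its paralogue rbpjb (ENSDARG00000052091, chromosome 7, 62723095 to 62849573) was at 5.48 and 8.48 FPKM, a 1.55-fold rise with the same q per the authors' deposited table. The coactivator gene maml3 (ENSDARG00000079552, chromosome 1, 40726407 to 40911858), a Mastermind, was at 16.1 and 22.8 FPKM, a 1.42-fold rise with q = 0.00577 per the authors' deposited table.

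The level of rbpja was thus 1.31 times that of notch3 in mock embryos and 2.45 times in Dcp2-DN embryos, a difference between genes that was not itself tested. The rows of MAML2 (0.677 and 0.685 FPKM) and rbpjl (listed at 0 in both groups) were not tested. Numb, an inhibitor of the receptor, was at 13.3 FPKM in controls and 13.4 FPKM under Dcp2-DN (q = 0.986 per the authors' deposited table), and numbl was not tested.

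**Figure D3:**
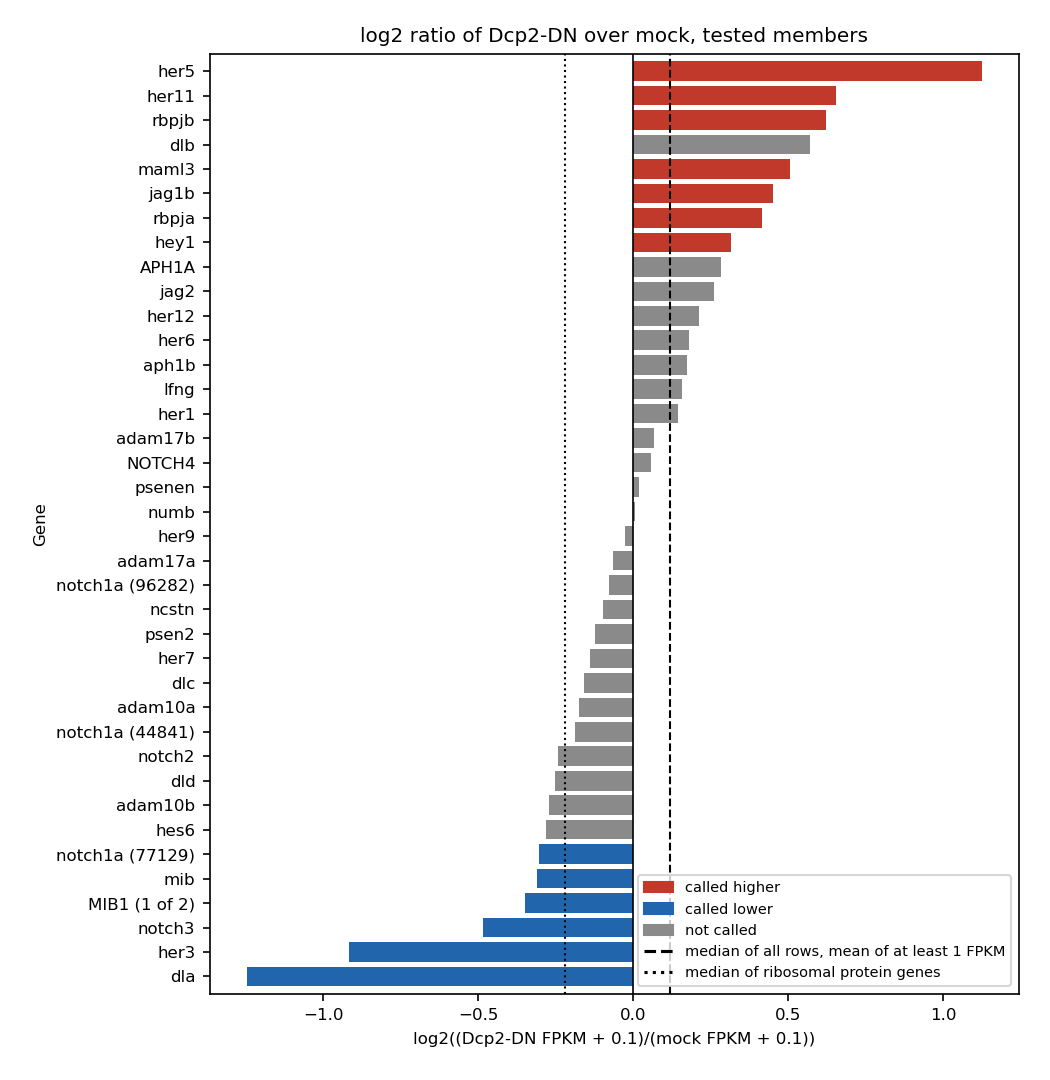
Bars give the log2 ratio of Dcp2-DN over mock with a pseudocount of 0.1 FPKM for 38 of the 39 tested members, ordered by size and coloured by call per the authors' deposited table. The dashed line is the median of all rows whose mean reached 1 FPKM (0.12) and the dotted line that of 83 ribosomal protein genes (-0.22). Bars run from -1.25 for dla to 1.12 for her5, and the grey bar of dlb among the red ones has no call.

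The called hairy-related genes had no single direction either. Of 25 rows, 10 were tested, with 3 calls higher and 1 lower per the authors' deposited table (30% and 10%, beside 20.6% and 4.35% of all tested genes). The largest rise of any member was that of her5 (ENSDARG00000008796, chromosome 14, 31412618 to 31414295), a repressor gene of the endoderm in the early gastrula and later of the midbrain-hindbrain boundary. It was at 30.1 FPKM in controls and 65.7 FPKM under Dcp2-DN, 2.18-fold higher with the lowest q of the authors' deposited table.

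Its neighbour her11 (ENSDARG00000002707, chromosome 14, 31408113 to 31410596), which acts with her5 at the midbrain-hindbrain boundary, lies 2.0 kb away. It was at 11.6 FPKM in controls and 18.3 FPKM under Dcp2-DN, 1.58-fold higher with q = 0.00109 per the authors' deposited table. Both genes of this pair thus rose. The next tested gene on the far side of her5, the prefoldin subunit gene pfdn6, was at 25.1 and 27.1 FPKM without a call (q = 0.605 per the authors' deposited table). On the side of her11 the next gene, fgf20b, was not tested, at 0.0929 and 0.282 FPKM.

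The gene hey1 (ENSDARG00000070538, chromosome 19, 33042964 to 33047694), a Hey-type repressor gene and common Notch target, was at 11.0 FPKM in controls and 13.7 FPKM under Dcp2-DN. It rose 1.25-fold with q = 0.0415, near the threshold of the authors' deposited table. Its relatives hey2 and heyl were not tested, and heyl was listed at 0 in both groups.

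In the other direction, her3 (ENSDARG00000076857, chromosome 8, 48790623 to 48791866), a neural plate repressor gene that in zebrafish is itself kept low by Notch activity, was at 26.6 FPKM in controls and 14.1 FPKM under Dcp2-DN. It fell 1.89-fold with the lowest q of the authors' deposited table. The levels of her5 and her3 were thus close in mock embryos (a ratio of 1.13) and far apart in Dcp2-DN embryos (4.67), where her5 was the higher. Of the family's calls, her5 was the largest rise and her3 the only fall, so the wider gap follows from the choice of this pair. The difference between her5 and her3 was not itself tested. A related row, her8a, fell outside the naming rule because of its letter suffix and was looked up after its value had been seen. It was at 18.2 and 12.8 FPKM, 1.42-fold lower with the lowest q of the authors' deposited table.

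Markers of the tissues in which these genes are expressed are given for comparison. Of the 3 neural ectoderm marker rows, the authors' deposited table had sox2 (46.6 to 26.8 FPKM) and otx2 (2.08 to 0.794 FPKM) as falls and 0 rises. The gene sox3 was at 268 and 274 FPKM without a call, and the summed level of the neural markers was 316 FPKM in controls and 301 FPKM under Dcp2-DN. The locus of sox2 was shared with 1 other gene. A wider neural list below, which includes these markers, had calls in both directions. Of its 22 tested rows, 5 rose and 5 fell per the authors' deposited table. Each was 22.7%, beside 20.6% called higher and 4.35% called lower among all tested genes. Of the 3 endoderm marker rows, sox17 was called lower (6.22 to 4.18 FPKM) and 0 were called higher per the authors' deposited table, with a summed level of 257 and 253 FPKM. The more abundant sox32 (188 and 187 FPKM) and gata5 (62.5 and 61.1 FPKM) had no call. None of these neural ectoderm and endoderm marker rows was at 0. The part of these tissues in the changes of her3 and her5 was not tested. In whole embryos, fewer cells of a type and less RNA per cell cannot be told apart.

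The segmentation clock genes her1, hes6 and her7 were the most abundant of the family in controls. None of the 3 was called per the authors' deposited table, beside 20.6% called higher and 4.35% called lower among all tested genes. Most tested genes thus had no call either. The gene her1 (ENSDARG00000014722, chromosome 5, 71693372 to 71700454), a cyclic repressor gene of the margin and the presomitic mesoderm, was at 105 FPKM in controls and 116 FPKM under Dcp2-DN (p = 0.7254, q = 0.845 per the authors' deposited table). Its partner her7, 11.4 kb away, was at 60.5 and 54.9 FPKM (q = 0.475 per the authors' deposited table). The gene hes6, whose product pairs with those of her1 and her7, was at 99.7 and 82.1 FPKM (p = 0.0525, q = 0.145 per the authors' deposited table), with a locus shared with 1 other gene.

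Neither her1 nor her7 thus passed the test that both her5 and her11 passed. The difference between the pairs was not tested, and no interval can be given without replicate values. The decapping cofactor gene pnrc2 was at 4198 FPKM in controls and 5028 FPKM under Dcp2-DN, also without a call (q = 0.704 per the authors' deposited table).

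Of the remaining tested hairy-related genes, her6, a Hes1-type repressor gene, was at 48.4 and 54.9 FPKM (q = 0.292 per the authors' deposited table). The gene her9, a repressor gene of the ectoderm, was at 4.63 and 4.54 FPKM (q = 0.954 per the authors' deposited table). The gene her12 was at 2.86 and 3.33 FPKM (q = 0.616 per the authors' deposited table). None of these passed.

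The order of levels within the family shifted with these changes. In mock embryos it ran her1, hes6, her7, her6, her5, her3, her11, hey1, her9 and her12. In Dcp2-DN embryos her5 stood at rank 3 instead of 5, above her7 and her6, and her11 passed her3. The share of her5 in the summed hairy-related FPKM was 7.46% in controls and 15.3% under Dcp2-DN, and that of her3 was 6.62% and 3.27%. The shares of hes6 (24.8% and 19.1%) and her7 (15.0% and 12.8%), neither of them called, were also lower under Dcp2-DN. The summed level of the family was 403 and 430 FPKM. With 1 value per group, neighbours in this order such as her7 and her6 in Dcp2-DN embryos (both 54.9 FPKM) cannot be separated.

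**Figure D4:**
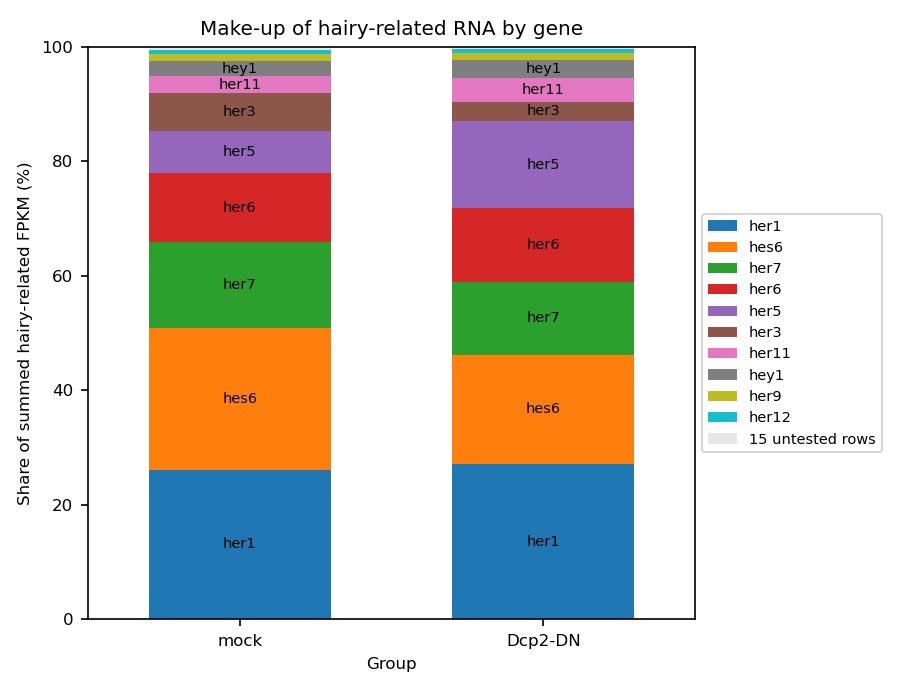
Stacked bars give each hairy-related gene's percentage of the summed FPKM of the 25 hairy-related rows in mock (left) and Dcp2-DN embryos (right), in the order of the mock levels from the bottom. The segment of her5 widens from 7.46% to 15.3% and that of her3 narrows from 6.62% to 3.27%. That of hes6 goes from 24.8% to 19.1%, that of her7 from 15.0% to 12.8% and that of her1 from 26.1% to 27.1%.

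Most of the other hairy-related rows were at or near 0. Of the 15 untested hairy-related rows, 5 were listed at 0 in both groups and none exceeded 0.855 FPKM, the Dcp2-DN value of her2. The 5 rows of the her4 cluster on chromosome 23, Notch targets of the neural plate, lie in tandem beside her12 with gaps of 0.9 to 5.6 kb and are near-identical copies, so reads may be split among them. Their highest value was 0.0543 FPKM. The name her4.2 stood on 2 of these rows and her15.1 on 2 rows of chromosome 11, and the name table gives one of each as her4.5 and her15.2. The pair her8.2 and her13 on chromosome 15 was also low, at no more than 0.454 FPKM.

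The proneural genes, whose repression is the classical outcome of Notch activity, were also barely present at this stage. None of the 5 rows was tested. The row of neurog1, the first proneural gene of the neural plate, was the highest of these at 0.934 FPKM in controls and 1.41 FPKM under Dcp2-DN. The rows of ascl1a, ascl1b, ASCL3 and neurog3 stayed at or under 0.126 FPKM. No count of calls can be given for proneural genes.

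Pathway genes outside the naming rule, such as ubiquitin ligases, sugar transferases, corepressors and coactivators, were read from a separate list. Of 66 symbols, 48 were found in 54 rows, and 47 rows were tested. The authors' deposited table called 10 of the 47 higher (21.3%, beside 20.6% of all tested genes) and 2 lower (4.26%, beside 4.35%), so both shares were near those of all genes. Their median log2 ratio was 0.040, beside 0.12 over all genes, and it became 0.26 when centred on ribosomal protein genes and -0.078 when centred on all genes.

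The largest called rises of this list were those of a CTBP1 model, a corepressor gene (3.68 to 6.37 FPKM, 1.73-fold), and a DTX3L model, a Deltex-type ligase gene (3.71 to 6.02 FPKM, 1.62-fold), both called per the authors' deposited table. Next per the authors' deposited table were rcor1, a subunit gene of the CoREST corepressor (41.8 to 65.4 FPKM, 1.56-fold), and aes, a short Groucho-family corepressor gene (3.45 to 5.26 FPKM, 1.52-fold). The other called rises were rfng, furinb, a second DTX3L model, an AAK1 model, tspan14 and DTX2. Radical fringe, rfng, was at 20.5 and 29.3 FPKM, a 1.43-fold rise with the lowest q of the authors' deposited table, while its relative lfng above had no call. The far more abundant model named ctbp1 did not rise with the CTBP1 model. It was at 116 FPKM in controls and 109 FPKM under Dcp2-DN, without a call (q = 0.673 per the authors' deposited table).

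The called falls were nrarpb, a target gene of Notch and feedback inhibitor of its intracellular domain, from 9.01 to 6.49 FPKM (1.39-fold lower, q = 0.0051 per the authors' deposited table), and hdac1. The histone deacetylase gene hdac1 went from 451 to 378 FPKM, 1.19-fold lower with q = 0.0495 per the authors' deposited table, just inside the threshold. The paralogue nrarpa was at 39.2 and 35.3 FPKM without a call (q = 0.303 per the authors' deposited table). The Groucho genes gro1 (39.7 and 43.7 FPKM) and gro2 (13.1 and 14.5 FPKM), whose products Her proteins recruit, were also without a call.

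Among the mesoderm genes that work beside the clock, most calls were falls. On the list of segmentation and presomitic genes, the 17 tested rows that were no members held 1 call higher and 5 lower per the authors' deposited table (5.88% and 29.4%, beside 20.6% and 4.35% of all tested genes). These rows also include the decapping cofactor gene pnrc2, its relative pnrc1 and wnt8a models that share a locus, none of them called. Falls per the authors' deposited table were ntlb (1.93-fold), tbx6l (1.57-fold), msgn1 (1.55-fold), ripply1 (1.48-fold) and pcdh8 (1.25-fold), regulators and an adhesion gene of the early mesoderm. Of these, ntlb has 1 further gene at its locus. The growth factor gene fgf8a rose from 56.4 to 85.5 FPKM, 1.51-fold, as called per the authors' deposited table. The abundant ntla (314 and 273 FPKM) and tbx16 (254 and 283 FPKM) had no call. The median log2 ratio of the 17 rows was -0.20, beside 0.12 over all genes. It became 0.018 when centred on ribosomal protein genes and -0.32 when centred on all genes. The 5 members on that list, her1, her7, dlc, dld and hes6, held 0 calls per the authors' deposited table. Of their rows 1, dld, was lower with an unadjusted Cuffdiff p under 0.05, beside 8.22% of all tested genes. Whether members and the other genes of the list differ was not tested.

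Neural and proneural genes outside the naming rule held calls in both directions. Of 22 tested rows, 5 rose and 5 fell per the authors' deposited table, 22.7% each, beside 20.6% called higher and 4.35% called lower among all tested genes. Per the authors' deposited table the calls lower were otx2, id4 (2.88 to 1.54 FPKM), sox2, irx1b (16.3 to 10.4 FPKM) and otx1a (27.5 to 19.6 FPKM). The calls higher per the authors' deposited table were neurod6a (0.675 to 1.48 FPKM), sox19b (70.2 to 105 FPKM), id1 (674 to 951 FPKM), irx7 (80.7 to 102 FPKM) and id2a (22.8 to 28.6 FPKM). The loci of sox2 and neurod6a were each shared with 1 other gene. The id genes encode inhibitors of proneural proteins, and in this list they stood on both sides.

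**Figure D5:**
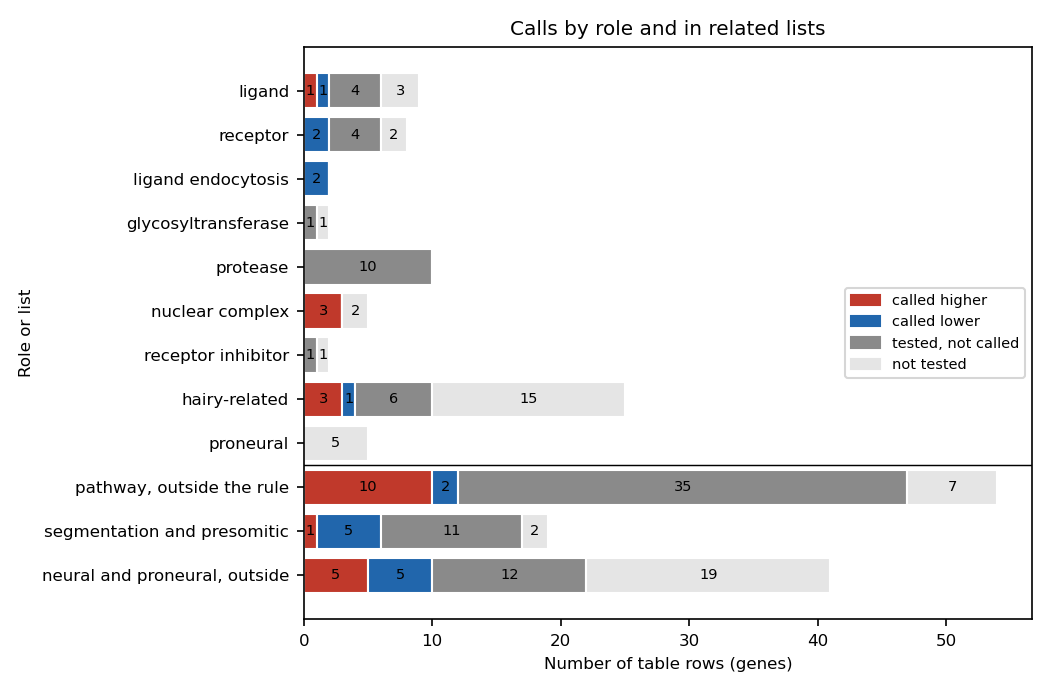
Number of table rows called higher (red), called lower (blue), tested without a call (dark grey) and not tested (light grey) per the authors' deposited table, for members by role (above the line) and for related genes outside the naming rule (below it). The nuclear complex has 3 red rows and no blue, the receptors and ligand endocytosis have blue and no red, and the protease bar holds no call among 10 rows.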

How the data were processed

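Stranded libraries were built from ribosomal RNA-depleted total RNA of whole embryos, per the labels' protocols. The submitters' processing notes name Zv9 and danRer7 (one assembly), TopHat 1.4.0 and Cuffdiff 2.1.1. For each gene the authors deposited an FPKM value in either group and a Cuffdiff p-value and q-value, per the file headers. Annotation release, library scaling and strand use are not given in the sources used here. Groups were taken from the sample labels, with mockB and DCP2 in the rows read as mock and Dcp2-DN.

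A call was a tested row with q under 0.05, over the whole table. Log2 ratios used a pseudocount of 0.1 FPKM, so changes of low genes are understated, and medians used rows whose mean reached 1 FPKM. Folds are ratios of FPKM. No test across samples could be run, and depth, and with it precision, is unknown. Members, lists and tests were chosen with earlier results of these data known. The rule for named genes took called members, uncalled members that reach 5 FPKM and, in the other lists, up to 4 called rises and falls. Uncalled members under 5 FPKM, her8a, flanking genes and further list genes were named after their values were seen. The values of 1 member, which stays in the counts, are not reported here. Of the 68 gene IDs, 57 were in the name table. The base from which deposited starts are counted is not stated. Alternatives were other thresholds, pseudocounts, minimum levels, centrings and leaving out shared loci. Computations used Python 3.11.15, NumPy 2.4.6 and pandas 2.3.3, with matplotlib 3.10.9 for figures.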

Additional observations from a re-analysis of the deposited data

How the results depend on the processing

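No paired analysis was possible because the table gives 1 value per group, and for the same reason no replicate could be left out. Under the authors' deposited q-values, a threshold of 0.01 left 5 members called higher and 3 lower, and a 1.5-fold minimum left 3 and 2 (13.5% and 1.55%, and 11.9% and 0.885%, of all tested genes). Of the pathway genes outside the naming rule, q under 0.01 left 4 higher and 1 lower, and the 1.5-fold minimum left 4 and 0, where the deposited q called 10 and 2. An unadjusted p under 0.05, a minimum mean of 1 FPKM and leaving out shared loci each kept these counts within 1.5 times. The members' median log2 ratio of 0.0043 was -0.066 over rows of at least 5 FPKM, 0.22 centred on ribosomal protein genes and -0.11 centred on all genes. Centring shifts every log2 ratio alike. No called member lay close enough to 0 to change sign with it. On centring to ribosomal protein genes, 8 of the 19 shown uncalled members that reached 5 FPKM in either group changed sign.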
